A study of Mus musculus with 240 samples.

Results

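The 47 protein-coding genes described here encode the subunits of the ionotropic and metabotropic receptors for glutamate and of the GABA-A and GABA-B receptors for gamma-aminobutyric acid (GABA). They were chosen by gene symbol from the 34623 genes of the count table, 22003 of them protein-coding. The set holds 4 AMPA receptor genes (Gria1 to Gria4), 7 NMDA receptor genes (Grin), 5 kainate receptor genes (Grik), 2 delta receptor genes (Grid), 8 metabotropic glutamate receptor genes (Grm), 19 GABA-A receptor genes (Gabr) and 2 GABA-B receptor genes (Gabbr). Of these, 41 had enough counts in the bulk libraries to be tested. The 6 others were Grm6, Gabra6, Gabrp, Gabrr1, Gabrr2 and Gabrr3, and the highest level any of them had in an animal was 2.18 counts per 1000000 (CPM), for Gabrr3.

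AMPA, NMDA and kainate receptors are ion channels of 4 subunits that open on binding glutamate, whereas the metabotropic receptors signal through G proteins. GABA-A receptors are chloride channels of 5 subunits, and GABA-B receptors are G protein-coupled heterodimers. Oligodendrocyte precursor cells (OPCs), the proliferating glial cells that give rise to oligodendrocytes, receive synapses from neurons and carry AMPA, NMDA and GABA-A receptors, and the same genes are expressed at high level in neurons.

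The samples were tdTomato-positive OPCs taken from mouse brain sections by laser capture microdissection. Animals labelled CKO were Trp53-/- Nf1-/-, lacking both tumour suppressors, and the others were wild type (WT). Both genotypes were sampled at 12 and 90 days after the start of tamoxifen treatment (dpi), WT also at 150 dpi, and the CKO samples of 150 dpi were tumours. Bulk libraries came from 5 WT (2 female, 3 male) and 7 CKO mice (4 female, 3 male) at 12 dpi, 5 WT (3 female, 2 male) and 7 CKO mice (4 female, 3 male) at 90 dpi, and 6 WT mice (2 female, 4 male) and 7 mice with tumours (3 female, 4 male) at 150 dpi. In addition, 56 libraries of 10 captured cells (10-cell) and 40 pool-and-split control libraries came from CKO mice at each of 12 and 90 dpi. The driver of recombination, the ages of the mice and the number of cells in a bulk capture are not given in the sources used here.

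Bulk libraries held 0.0937 to 23.2 M counts (M, 1000000 counts), 10-cell libraries 1.64 to 6.49 M and pool-and-split libraries 1.91 to 5.16 M. The bulk library of animal WT_21167 at 90 dpi was the shallowest, with 0.0937 M counts. That animal was the lowest of its group for 21 of the 41 tested receptor genes and the highest for 12. It set the lowest WT level at 90 dpi for Gria1, Grin2b, Grin3a, Grik2, Grik3, Grik4 and Gabra3 below. Nf1 had a median of 310 CPM in WT and 181 CPM in CKO animals at 12 dpi, 294 and 177 CPM at 90 dpi, and 290.0 CPM in WT and 217 CPM in tumours at 150 dpi. Trp53 medians in CKO animals (32.4 CPM at 12 dpi and 28.4 CPM at 90 dpi) lay within the range of WT animals at those times. OPC markers (15 genes, among them Pdgfra and Ptprz1) summed to 2931 to 5853 CPM in the 30 animals without tumours and to 6068 to 15997 CPM in tumours. Neuron markers (12 genes, among them Snap25 and Syt1) summed to 6867 to 15374 CPM in the animals without tumours and to 325 to 1519.5 CPM in tumours. No neuron marker was at 0 in any animal, and of the OPC markers only C1ql1 was, in WT at 90 dpi. In bulk samples, fewer cells of a type and less RNA per cell cannot be told apart.

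The coding sequence around the pore is shown for the AMPA subunits and for the kainate pair that moved in opposite directions in tumours. It shows how alike these members are over this short stretch, not over the whole genes. It also marks the codon for glutamine at the Q/R site, which RNA editing recodes in Gria2 and Grik2. The bases are from GENCODE M21 transcripts on GRCm38, 5′ to 3′ on the coding strand, and capitals mark that codon. Each stretch was cut to the exon that holds the codon, exon 11 of Gria1 (chr11:57243052-57243119, + strand), Gria2 (chr3:80706888-80706955, - strand) and Gria3 (chrX:41610223-41610290, + strand), and exon 12 of Gria4 (chr9:4464114-4464181, - strand), Grik2 (chr10:49244325-49244373, - strand) and Grik3 (chr4:125691165-125691213, + strand).
Gria1: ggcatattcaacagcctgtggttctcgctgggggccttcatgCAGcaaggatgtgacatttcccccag
Gria2: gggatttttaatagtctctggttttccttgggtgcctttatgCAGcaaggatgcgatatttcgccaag
Gria3: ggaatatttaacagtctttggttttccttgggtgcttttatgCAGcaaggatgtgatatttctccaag
Gria4: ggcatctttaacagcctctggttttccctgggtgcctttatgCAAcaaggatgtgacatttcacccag
Grik2: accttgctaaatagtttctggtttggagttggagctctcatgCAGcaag
Grik3: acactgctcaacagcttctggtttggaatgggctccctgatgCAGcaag

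Over these 68 bases, Gria2 and Gria3 were the most alike of the AMPA pairs, at 89.7% identity, and Gria1 and Gria2 the least, at 77.9%. Grik2 and Grik3 shared 77.6% of 49 bases. All 4 AMPA genes and both kainate genes read glutamine at the Q/R site in the genome, with CAA in place of CAG in Gria4. Counts per gene do not separate edited from unedited transcripts, so the values below are for both together.

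In the 30 animals without tumours the summed level of the receptor genes ran from 8124 to 14158 CPM. It had a median of 9563 CPM in WT and 9696 CPM in CKO animals at 12 dpi, 8869 and 9888 CPM at 90 dpi, and 10417 CPM in WT at 150 dpi. Genes were compared with each other per kilobase of exon, and whether counts grew with exon length was not tested. On that scale Gria2 (the AMPA subunit that sets calcium permeability) was among the 2 highest members in each of the 5 groups without tumours. In WT at 12 dpi its mean level was 114.0 CPM per kb, followed by Grin2b (80.8 CPM per kb), Gabra5 (68.8) and Gria1 (59.95). In each of the other groups without tumours these 3 genes also came directly after the 2 highest.

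Before tumours, no receptor gene passed the test for genotype. CKO against WT gave 0 called genes of 41 at 12 dpi (0.0183% of all 16349 tested genes were called) and 0 of 41 at 90 dpi (0.0489% of all genes) in edgeR's quasi-likelihood test, and DESeq2 also called 0 in both. At an unadjusted p under 0.05, the count was 1 at 12 dpi (4.85% of all genes) and 4 at 90 dpi (5.20%). The median log2 difference over the 41 genes was 0.14 at each time. Groups did not overlap for 2 of 41 genes at 12 dpi (1.33% of all genes) and for 2 of 41 at 90 dpi (0.758% of all genes), and all 4 cases fell short of the adjusted threshold. The tumours were part of the same fit and of its estimate of the spread. In simulated counts for the 12 dpi comparison, edgeR called 24 of 50 genes with a true log2 change of -1. With a true change of 1 it called 35 of 50. The 0 calls therefore do not show that levels were equal.

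The gene with the smallest unadjusted p at 12 dpi was Gabra2, the alpha-2 subunit of synaptic GABA-A receptors. Its level ran from 369 to 444 CPM in the 5 WT animals and from 204 to 335 CPM, with a median of 278 CPM, in the 7 CKO animals. The ranges of the 2 genotypes did not overlap, with a log2 difference of -0.55 ± 0.26 (SE, adjusted p = 0.999, edgeR). Fitted on the 2 compared groups alone, the difference was -0.59 with an adjusted p of 0.0347, so the call depended on which animals were in the fit. At 90 dpi the ranges of Gabra2 overlapped, with 284 to 355 CPM in WT and 232 to 435 CPM in CKO animals. At 90 dpi, the 4 genes under the unadjusted threshold were Grik4 (log2 difference 0.81), Grm7 (0.80), Grm3 (0.73) and Gabra3 (0.64), all with higher fitted values in CKO animals and a smallest adjusted p of 0.796. The shallow WT_21167 was the lowest WT animal for Grik4 (0 CPM) and Gabra3 (19.0 CPM). CKO_20647 was the highest CKO animal for Grm3 (119 CPM), Grm7 (64.8 CPM) and Gabra3 (125 CPM).

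Time alone also left the receptor genes uncalled. In CKO animals 0 of 41 were called between 12 and 90 dpi (0% of all genes), in WT 0 of 41 over the same time (0.00612%) and 0 of 41 between 90 and 150 dpi (0.0183%). The counts at an unadjusted p under 0.05 were 1 (4.26% of all genes), 0 (4.86%) and 7 (8.26%), and DESeq2 called 0 in each. The 7 in WT between 90 and 150 dpi were Grik1 (log2 change -1.05), Grik4 (0.87), Grm5 (0.87), Grid1 (0.86), Grm4 (0.75), Gabra3 (0.60) and Gria2 (0.58), with a smallest adjusted p of 0.517. Grik4 and Gabra3 were also named above for genotype at 90 dpi, and both comparisons use the same WT animals of 90 dpi. The change of the genotype difference from 12 to 90 dpi gave 0 calls of 41 (0% of all genes), and 0 at an unadjusted p under 0.05 (3.60%). These results come from the same fit, so 0 calls do not show that levels stayed the same.

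In tumours most receptor genes were lower, and a small group was higher. The summed level of the 47 genes fell from 8787 to 14158 CPM in WT animals at 150 dpi (median 10417) to 1782 to 4917 CPM in tumours (median 3065). Against WT at 150 dpi, 26 of the 41 tested genes fell and 4 rose, so that 73.2% were called, beside 46.2% of all genes (24.3% higher and 21.9% lower). The median log2 change was -1.29, against 0.06 over all genes tested. Against CKO animals at 90 dpi, 30 fell and 4 rose, so that 82.9% were called, beside 49.1% of all genes (26.4% higher and 22.6% lower), with a median of -1.40 against 0.12 over all genes. Both comparisons share the same 7 tumours and are given side by side, and in the second one tumour state and time cannot be told apart. Tumours did not overlap WT at 150 dpi for 16 of 41 genes (15.7% of all genes) and did not overlap CKO at 90 dpi for 20 of 41 (17.2% of all genes).

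Neuron markers moved with these falls. All 12 neuron markers were lower in tumours than in WT at 150 dpi, with a median log2 change of -3.42, and all 12 were lower than in CKO at 90 dpi, with a median of -3.76. Their summed level was 7797 to 10716 CPM in WT at 150 dpi and 325 to 1519.5 CPM in tumours. The most abundant, Snap25, had a median of 4557 CPM in WT and 180.4 CPM in tumours. Of the 15 OPC markers, 12 were higher in tumours than in WT and none lower, with a median of 1.46. Microglia markers were higher for 9 of 10 genes and oligodendrocyte markers lower for 7 of 11. The part of these shifts in the receptor results was not tested.

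**Figure D1:**
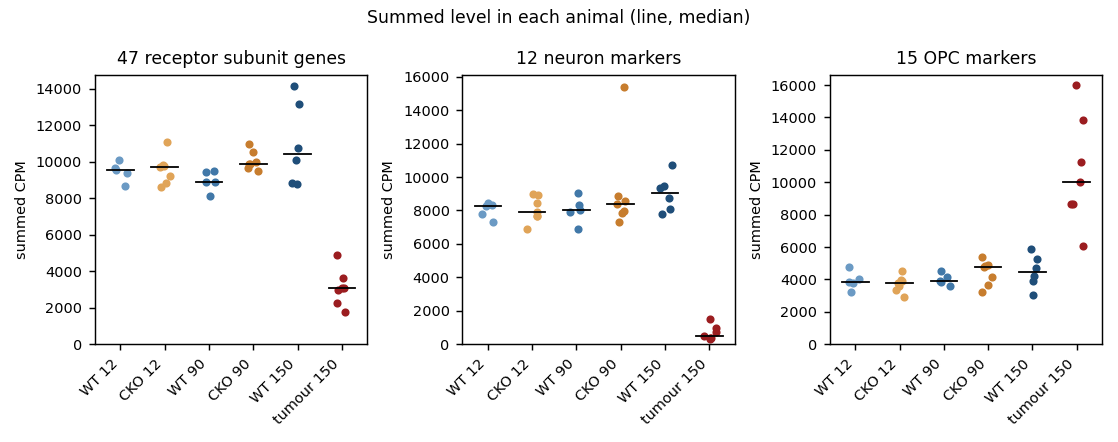
Summed CPM in each animal (points, with the group median as a line) of the 47 receptor genes, 12 neuron markers and 15 OPC markers, by genotype and dpi. Receptor sums in tumours (1782 to 4917 CPM) and neuron marker sums in tumours (325 to 1519.5 CPM) lie below all other animals, and OPC marker sums in tumours (6068 to 15997 CPM) lie above them.

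**Figure D2:**
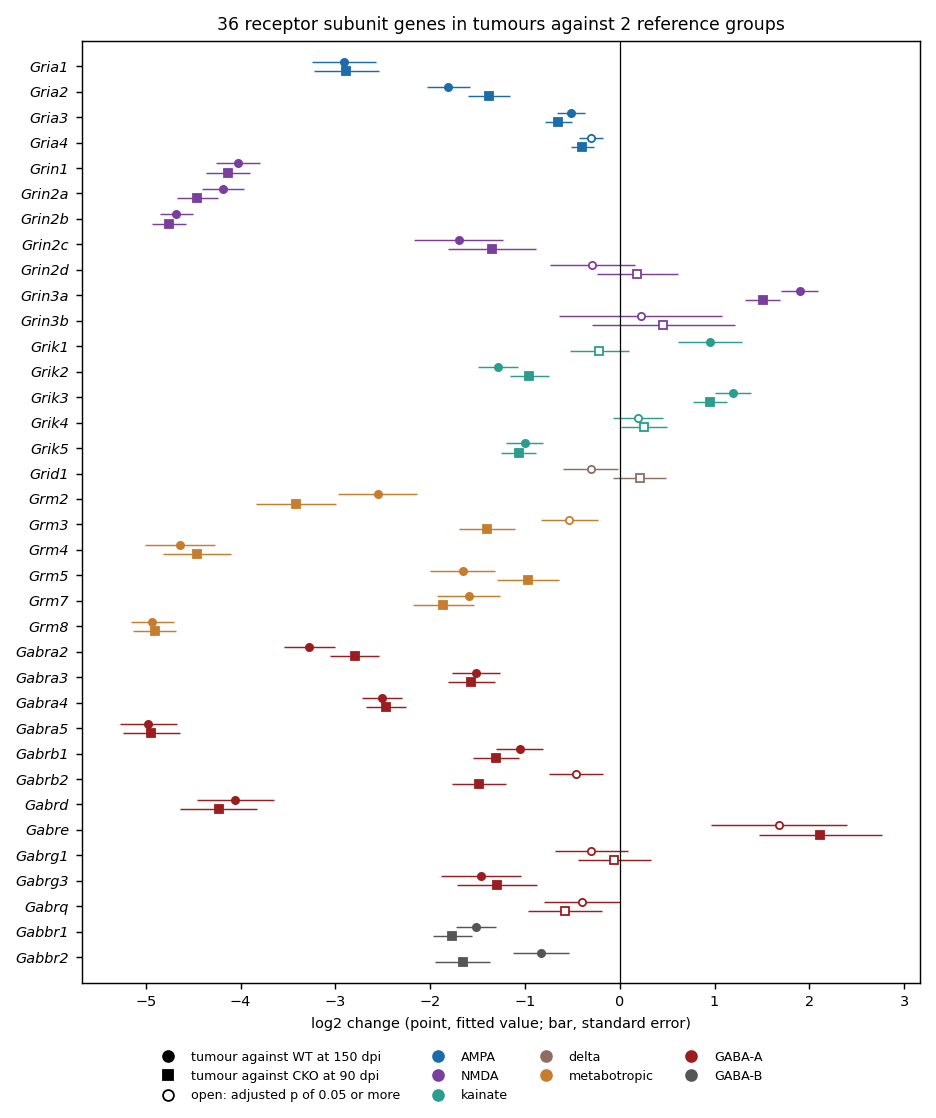
Log2 change of 36 tested receptor genes in tumours, fitted with edgeR, against WT at 150 dpi (circles) and CKO at 90 dpi (squares), with standard errors as bars. Filled symbols passed an adjusted p of 0.05. Points range from -4.97 (Gabra5) to 2.12 (Gabre), and those right of 0 with filled symbols in both comparisons are Grin3a and Grik3.

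AMPA receptors carry most fast excitation, and their 4 subunits fell to unequal degrees. Against WT, 3 of 4 fell and none rose, with a median of -1.16, and against CKO all 4 fell. Gria1 ran at 348.7, 352.1, 367.9, 371.0 and 371.6 CPM in WT at 12 dpi and at 293.9, 352.2, 387.4, 410.8 and 416.8 CPM in WT at 90 dpi. Its lowest, median and highest levels were 337, 382 and 439 CPM in CKO animals at 12 dpi, and 277, 368 and 417 CPM in CKO at 90 dpi. It had 355, 384 and 421 CPM in WT at 150 dpi, and 8.45, 46.7 and 120.0 CPM in tumours. The 5 groups without tumours overlapped each other, and all 7 tumours lay below all 30 other animals. The log2 change was -2.91 ± 0.34 (SE, adjusted p = 7.01e-09) against WT and -2.88 ± 0.34 (adjusted p = 7.23e-09) against CKO.

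Gria2 fell by less. Its lowest, median and highest levels were 1604, 2266 and 4610.5 CPM in WT at 150 dpi and 359.8, 665 and 1430.3 CPM in tumours, with no overlap, and the log2 changes were -1.81 against WT and -1.38 against CKO. Gria3 changed by -0.52 and -0.65, and tumours (161 to 354 CPM) overlapped WT (267.5 to 384.5 CPM). Its call against WT was lost when only the 2 groups were fitted (log2 -0.46, adjusted p = 0.131). Gria4 had a median of 246 CPM in WT and 218 CPM in tumours, with a log2 difference of -0.30 that missed the threshold (adjusted p = 0.0524) and reached it without the sex term (-0.31), Tumor_16840 (-0.34) or Tumor_21256 (-0.36). Against CKO it fell by 0.39 on the log2 scale, a call that was lost with RLE scaling and DESeq2 (both -0.23), with a mean of at least 10 CPM (-0.27) and in a fit of the 2 groups alone (-0.41).

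The make-up of the AMPA pool differed accordingly, as a description of shares computed per kilobase within each animal. Gria1 made up 15.2 to 27.3% of the pool in WT at 150 dpi and 1.81 to 18.8% in tumours, with median shares of 21.6% and 5.49%. Gria4 made up 11.2 to 16.5% in WT and 23.3 to 36.5% in tumours. Gria2 had the highest median share in both, at 52.7% and 44.5%.

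NMDA receptors need the obligatory Grin1 subunit with Grin2 or Grin3 partners, and here the family split sharply. Grin1, Grin2a, Grin2b and Grin2c fell against both reference groups, Grin3a rose against both, and Grin2d and Grin3b passed neither test. Grin2b had 1577.9, 1765.8, 1794.2, 2379.3 and 2524.3 CPM in WT at 12 dpi and 1327.1, 1695.8, 1719.4, 1956.1 and 2098.5 CPM in WT at 90 dpi. In CKO animals the lowest, median and highest levels were 1629, 2053 and 2350.1 CPM at 12 dpi and 1667, 1917.5 and 2120.4 CPM at 90 dpi. They were 1402, 1989 and 2243 CPM in WT at 150 dpi and 36.6, 66.7 and 129.9 CPM in tumours. The highest tumour was about an order of magnitude below the lowest animal without a tumour. The log2 change of Grin2b was -4.68 ± 0.18 (SE, adjusted p = 9.08e-22) against WT and -4.76 ± 0.17 (adjusted p = 7.15e-22) against CKO. Grin1 (-4.03 against WT, -4.13 against CKO) and Grin2a (-4.19 and -4.46) changed by nearly as much, and for both the tumours stayed below every animal of the 2 reference groups. Grin2c changed by -1.70 and -1.35, with calls lost in fits of the compared groups alone (adjusted p = 0.0552 and 0.0628) and a value of -2.09 against CKO without Tumor_16844.

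Grin3a, which encodes a subunit known for lowering calcium permeability and magnesium block, went the other way. It had 31.1, 35.6, 38.3, 40.2 and 44.97 CPM in WT at 12 dpi and 28.4, 39.8, 41.3, 55.3 and 57.2 CPM in WT at 90 dpi. The lowest, median and highest levels were 39.3, 50.5 and 53.5 CPM in CKO at 12 dpi, 44.3, 53.3 and 82.2 CPM in CKO at 90 dpi and 27.6, 47.4 and 61.9 CPM in WT at 150 dpi. The 7 tumours had 111.5, 111.6, 137, 162, 176, 238.1 and 238.1 CPM. All tumours were above all other animals, and the other 5 groups overlapped each other. The log2 change was 1.90 ± 0.20 (SE, adjusted p = 4.53e-10) against WT and 1.51 ± 0.18 (adjusted p = 1.43e-08) against CKO. With Grin1 and the Grin2 genes counted alongside, Grin3a made up 1.34 to 3.72% of NMDA transcripts per kilobase in WT at 150 dpi and 58.0 to 70.1% in tumours. In none of the 30 animals without tumours did that share exceed 4.80%. The summed NMDA level was 2152 to 3256 CPM in WT at 150 dpi and 205 to 474 CPM in tumours.

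Kainate receptors, which modulate transmission on both sides of the synapse, overlapped in summed level while their make-up differed. The 5 kainate genes summed to 415 to 775 CPM in WT at 150 dpi and to 317 to 636 CPM in tumours. Against WT, Grik1 and Grik3 rose, Grik2 and Grik5 fell, and Grik4 did not pass, with a median of 0.20. Grik3 had lowest, median and highest levels of 60.5, 117 and 165 CPM in WT at 150 dpi, 91.2, 138.5 and 161 CPM in CKO at 90 dpi and 141, 291 and 346 CPM in tumours. The lowest tumour fell within the range of both reference groups, and the other groups without tumours ran from 85.3 to 173 CPM. Its log2 change was 1.19 ± 0.19 (SE, adjusted p = 2.54e-06) against WT and 0.95 ± 0.18 (adjusted p = 3.54e-05) against CKO.

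Grik2, a near relative of Grik3 that forms the same low-affinity channels, fell. Its lowest, median and highest levels were 243, 292 and 547 CPM in WT at 150 dpi, 186, 273 and 335 CPM in CKO at 90 dpi and 72.4, 146 and 266 CPM in tumours. Tumours overlapped the low end of both groups, and the earlier groups ran from 171 to 311 CPM. The log2 change of Grik2 was -1.29 ± 0.21 (SE, adjusted p = 4.21e-06) against WT and -0.95 ± 0.21 (adjusted p = 0.000228) against CKO. Median shares of the kainate pool per kilobase were 47.2% for Grik2 and 24.2% for Grik3 in WT at 150 dpi, and 21.6% and 58.4% in tumours. The ranges of each gene's share did not overlap between these groups. Grik5, a high-affinity partner subunit, changed by -1.003 and -1.07. Grik1 was called only against WT (0.95, adjusted p = 0.0213), where WT at 150 dpi had a low median of 6.84 CPM against 9.89 CPM in tumours. That call was lost without Tumor_16840 (log2 0.63) or WT_22064 (0.76), and in a fit of the 2 groups alone (1.02). Against CKO, Grik1 had a log2 difference of -0.22.

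The delta receptors are kin of these channels that bind cerebellin rather than glutamate at synapses. Grid1 had a median of 39.4 CPM in WT at 150 dpi and 41.6 CPM in tumours, and it did not pass the test.

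**Figure D3:**
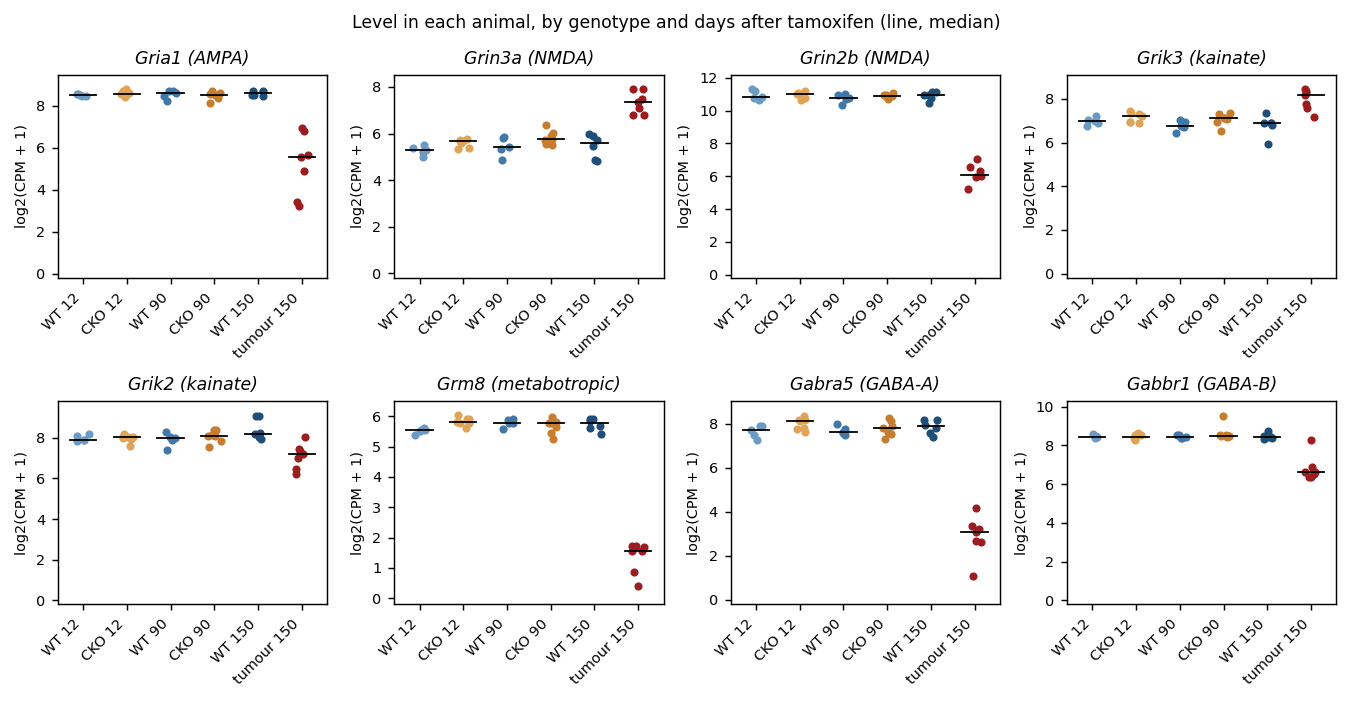
Level of 8 receptor genes in each animal as log2(CPM + 1), by genotype and dpi, with the group median as a line. Tumours lie above every other animal for Grin3a (111.5 to 238.1 CPM) and below every other animal for Gria1, Grin2b, Grm8 and Gabra5, while Grik2, Grik3 and Gabbr1 are less cleanly split.

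Metabotropic glutamate receptors fall into a Gq-coupled group, to which Grm5 belongs, and Gi-coupled groups (Grm2, Grm3 and Grm4, Grm6 to Grm8), and no tested member rose. Against WT, 6 of 7 tested genes fell with a median of -1.66, and against CKO all 7 fell. Grm8, a presynaptic type in neurons, had 41.4 to 59.9 CPM with a median of 53.6 CPM in WT at 150 dpi and 36.9 to 61.9 CPM with a median of 54.3 CPM in CKO at 90 dpi. In tumours it had 0.33 to 2.31 CPM, with a median of 1.97 CPM. No tumour came near the lowest of the 30 other animals, which had 36.9 CPM. The log2 change was -4.93 ± 0.23 (SE, adjusted p = 3.25e-19) against WT and -4.91 ± 0.23 (adjusted p = 3.11e-19) against CKO. Grm4 changed by -4.64 and -4.46 and also did not overlap either group.

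Grm2 (-2.55 against WT, -3.42 against CKO) and Grm7 (-1.60 and -1.86) fell by less. Grm5, the most abundant metabotropic gene per kilobase in WT at 150 dpi and in tumours, changed by -1.66 and -0.97. Tumours spread from 35.9 to 477 CPM for Grm5 and overlapped WT at 318 to 961 CPM. Its call against CKO was lost in a fit of the 2 groups alone (-0.98, adjusted p = 0.0820), and without Tumor_16840 the value was -1.55. Grm3 passed only against CKO (-1.40), a group in which CKO_20647 stood at 119 CPM, and the value was -0.84 without that animal and -0.83 with the deepest library per animal. Against WT its log2 difference was -0.53 (adjusted p = 0.156).

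GABA-A receptors combine alpha, beta and usually gamma or delta subunits. Against WT, 9 of 14 tested genes fell and none rose, with a median of -1.49, and against CKO 11 fell and 1 rose. Gabra5, a mostly extrasynaptic subunit, had 152.7, 181.4, 213.6, 236.5 and 239.1 CPM in WT at 12 dpi and 177.9, 192.9, 199.1, 217.4 and 258.1 CPM in WT at 90 dpi. The lowest, median and highest levels were 199.8, 280.3 and 333 CPM in CKO at 12 dpi, 157, 224 and 305 CPM in CKO at 90 dpi and 171, 239 and 287 CPM in WT at 150 dpi. In tumours it had 1.10, 5.25, 5.30, 7.49, 8.47, 9.34 and 17.2 CPM. Tumours were apart from all other animals, which overlapped each other, and the log2 change was -4.97 ± 0.30 (SE, adjusted p = 5.04e-16) against WT and -4.94 ± 0.30 (adjusted p = 4.54e-16) against CKO. This was the lowest fitted value of any receptor gene in either comparison.

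Other alpha subunits fell as well, among them Gabra2 (-3.27 against WT, -2.80 against CKO), Gabra4 (-2.51 and -2.46) and Gabra3 (-1.52 and -1.57). Gabrd, the partner of extrasynaptic receptors, changed by -4.06 and -4.23. The beta subunit Gabrb1 changed by -1.06 and -1.31. Gabrb2 passed only against CKO (-1.48), and against WT only without Tumor_21256 (-0.68).

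The gamma subunits, which place receptors at synapses, were uneven. Gabrg3 changed by -1.47 and -1.30 and overlapped the reference groups. Both calls were lost in fits of the compared groups alone (adjusted p = 0.0637 and 0.0736), and without Tumor_21256 the value against CKO was -1.96. Gabrg1 had a median of 55.7 CPM in WT at 150 dpi and 50.8 CPM in tumours, where it ran from 6.92 to 166 CPM, and it passed neither test. Without Tumor_16839, the highest tumour, it was called against WT (-0.83). Its median share of gamma transcripts per kilobase was 22.8% in WT and 52.0% in tumours. Gabre, an epsilon subunit at the edge of detection, had 0.41 to 1.78 CPM in WT at 150 dpi and 1.24 to 4.39 CPM in tumours, and was called against CKO (2.12, adjusted p = 0.00706). Against WT it narrowly missed the threshold (1.68, adjusted p = 0.0539) and was called in 15 of 43 alternative settings, among them RLE scaling (1.84), DESeq2 (1.85), the deepest library (1.84) and the 2 groups alone (1.59). Gabrq had no call, although without Tumor_16839, at 18.9 CPM, it was called against WT (-0.94) and CKO (-1.09).

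Many GABA-A genes lie in clusters in the genome, and the changes differed within them. On chromosome 7 (GRCm38), Gabrg3 (56716465 to 57387188) and Gabra5 (57407672 to 57510059) changed by -1.47 and -4.97 against WT. On chromosome 5, Gabrg1 (70751047 to 70842617) had -0.30 and no call, whereas Gabra2 (70957597 to 71095849), Gabra4 (71569749 to 71658308) and Gabrb1 (71658113 to 72149037) changed by -3.27, -2.51 and -1.06. Exons of Gabra4 and Gabrb1 share 46 bases on opposite strands, a small part of either gene. Exons of Grin3b share 1059 bases with Tmem259 on the opposite strand, so its low counts are uncertain.

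Working GABA-B receptors need both Gabbr1 and Gabbr2. Gabbr1 had 329, 339, 342, 360.2 and 387 CPM in WT at 12 dpi and 328, 332, 338, 363 and 369.7 CPM in WT at 90 dpi. The lowest, median and highest levels were 303, 348 and 389.8 CPM in CKO at 12 dpi, 338, 361 and 739.5 CPM in CKO at 90 dpi, 320.3, 344.5 and 425 CPM in WT at 150 dpi and 80.4, 97.2 and 304 CPM in tumours. The tumours lay below both reference groups, with Tumor_21256 at 304 CPM apart from the other 6, which ran from 80.4 to 117 CPM. The log2 change of Gabbr1 was -1.52 ± 0.21 (SE, adjusted p = 2.19e-07) against WT and -1.77 ± 0.21 (adjusted p = 6.60e-09) against CKO. Gabbr2 changed by -0.83 (adjusted p = 0.0215) and -1.65. Its call against WT was lost with RLE scaling (-0.68) and without any one of Tumor_16713 (-0.73), Tumor_21349 (-0.68), WT_22062 (-0.69) or WT_22064 (-0.72). In CKO at 90 dpi, Gabbr2 stood at 276.4 CPM in CKO_20647 and at 48.4 to 75.6 CPM in the other 6, and the value against CKO was -1.01 without that animal and -1.07 with the deepest library per animal.

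**Figure D4:**
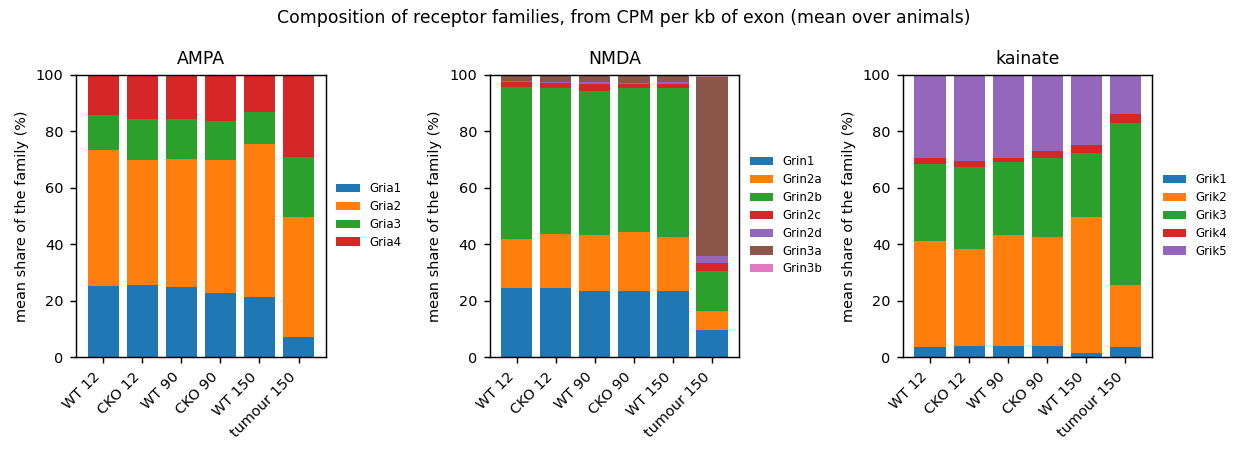
Mean share of each gene in the AMPA, NMDA and kainate families, from CPM per kb of exon in each animal, by genotype and dpi. The 5 groups without tumours look alike, and in tumours Grin3a takes a mean of 63.2% of the NMDA pool and Grik3 57.1% of the kainate pool.

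Ranked per kilobase, the tumour list differed from that of the other groups. Gria2 (50.0 CPM per kb), Gria4 (32.7) and Grik3 (29.1) were the 3 highest means in tumours, and Gria3 (23.2) was among the 5 highest. Grin2b stood at 78.0 CPM per kb in WT at 150 dpi and at 3.05 in tumours, and Gabra5 at 79.2 and 2.60. Grin3a stood at 3.67 CPM per kb in WT and 13.7 in tumours.

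The tumours were not equal among themselves. Tumor_21256 had the highest level of all tumours for 18 of the 41 genes, and for 13 of the 26 that fell against WT. Its neuron marker sum, 1519.5 CPM, and its OPC marker sum, 15997 CPM, were also the highest of the tumours. Tumor_16713 was lowest for 15 genes and Tumor_21349 for 13, with neuron marker sums of 358 and 325 CPM. Their OPC marker sums were 13857 and 6068 CPM. At 90 dpi, CKO_20647 had the highest level of the CKO animals for 13 genes, among them Gabbr1, Gabbr2 and Grm3, and the lowest for 11, among them Gria1, Gria2, Gabra5 and Grm8. It had a neuron marker sum of 15374 CPM, against 7283 to 8871 CPM in the other 6. Its OPC marker sum, 3222 CPM, was the lowest of the CKO animals at 90 dpi. The part of neuronal RNA and of OPC RNA in these differences was not tested.

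The genotype difference at 150 dpi was set against that at 90 dpi in 1 model. The change was called for 28 of 41 genes, 25 downward and 3 upward, beside 30.0% of all genes (14.2% higher and 15.8% lower). Over all genes that split turned with the scaling, from 2314 higher and 2590 lower to 2932 and 2185 with RLE scaling and 3254 and 2301 with DESeq2. Grin3a (1.59) and Grik3 (0.94) were among those upward. The largest downward values belonged to Gabra5 (-5.09), Grin2b (-4.82) and Grm8 (-4.81). RLE scaling moved the median of all genes from 0.06 to 0.22 in tumours against WT and from 0.12 to 0.29 against CKO, and no called receptor gene changed direction under any setting.

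Genes that work with the receptors followed in part. Of 13 auxiliary subunits of ionotropic glutamate receptors, 8 fell and 2 rose in tumours against WT, with a median of -1.63, and 9 fell and 2 rose against CKO. Cacng3, which traffics AMPA receptors in neurons, changed by -5.17 and Cnih3 by -2.96, while the related Cacng4 (1.26) and Shisa6 (1.34) rose. The rise of Shisa6 against CKO (0.87, adjusted p = 0.0450) was near the threshold and was lost without a filter, in a fit of the 2 groups alone and without any one of 13 animals, with the lowest value without Tumor_21256 (0.48). Cacng4 stood at 274.3 to 605 CPM in tumours, and the summed level of the list overlapped, at 996 to 1509.8 CPM in WT at 150 dpi and 659.9 to 1325 CPM in tumours.

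Of 15 scaffolds and adaptors that hold glutamate receptors at the postsynaptic density, 12 fell and 1 rose against WT, with a median of -2.04, and 13 fell and 1 rose against CKO. The lowest value was that of Dlg2 (-4.15), a member of the PSD-95 family, and the gene that rose was Homer3 (1.29), which stayed under 8 CPM in every tumour. Its call was lost without a filter (1.29), in a fit of the 2 groups alone (1.40) and without any one of Tumor_16839 (1.12), Tumor_21349 (1.19), WT_21590 (1.13), WT_21592 (1.15), WT_21593 (1.25) or WT_22062 (1.12). Shank2 had 614 CPM in Tumor_21354 and 23.1 to 65.8 CPM in the other 6 tumours. Of 10 proteins that anchor or accompany GABA receptors, 4 fell, among them Lhfpl4 (-1.23), and 2 rose, Gabarap (0.52) and Nlgn2 (0.46), with a median of -0.11. Against CKO, 5 fell and Gabarap rose (0.77), with a median of -0.46, and Nlgn2 had a log2 difference of 0.029 (adjusted p = 0.905). The call of Nlgn2 against WT was lost in a fit of the 2 groups alone (0.52) and without any one of Tumor_16713 (0.33), Tumor_16844 (0.43), WT_21591 (0.44) or WT_22064 (0.40). Of 15 genes for transmitter synthesis, uptake and vesicular transport, 9 fell and none rose against WT, with a median of -0.72, and 9 fell and 1 rose against CKO, with a median of -0.68. The gene that rose was Slc17a8 (2.58, adjusted p = 0.0142), a vesicular glutamate transporter that stayed under 2 CPM in every tumour. Slc32a1 (-3.93), the vesicular GABA transporter, and Gad1 (-3.88), which makes GABA, are genes of inhibitory neurons and had the lowest values.

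Of the 47 genes, 32 had at least 1 promoter in the RefSeq table (GRCm38.p6), with 39 promoters between them. These were searched on both strands for AGCACC and GGACAG with 2 bases between them, the core of the RE1 element bound by REST, the repressor that keeps neuronal genes low in other cells. It was found in 1 member, Gria2, and in 17 of all 32851 promoters (0.0517%). The 250 bases before the Gria2 start (chr3:80802836-80803085, - strand) are shown with the match in capitals, which lies on the opposite strand, 170 to 157 bases before the start.
Gria2 promoter: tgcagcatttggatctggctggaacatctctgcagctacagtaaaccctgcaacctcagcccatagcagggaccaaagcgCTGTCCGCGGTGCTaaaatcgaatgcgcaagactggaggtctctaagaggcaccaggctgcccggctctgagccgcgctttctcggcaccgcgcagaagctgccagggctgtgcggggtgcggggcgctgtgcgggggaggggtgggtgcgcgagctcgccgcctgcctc

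The small libraries, all of CKO mice, show how often single captures of 10 cells held a receptor transcript. Gria2 had a count in every 10-cell and pool-and-split library at both times. Gabbr1 had one in 96.4% of 10-cell libraries at 12 dpi and 100% at 90 dpi. Grin1 was found in 94.6% and 96.4% of them, Gria1 in 92.9% and 98.2%, and Grin2b in 91.1% and 94.6%. At least 50% of the 10-cell libraries held a count for 23 members at 12 dpi and 31 at 90 dpi, and of the pool-and-split libraries for 26 and 27. A 10-cell library held a median of 22 of the 47 genes at 12 dpi (range 9 to 36) and 27 at 90 dpi (range 15 to 35). Gabrp and Gabrr3 had no count in any small library.

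The NMDA subunit that rose in tumours was already common in these captures. Grin3a had a count in 62.5% of 10-cell libraries at 12 dpi and in 87.5% at 90 dpi, and in 80.0% and 97.5% of pool-and-split libraries. The libraries of a kind fall into 4 sets at each time, by sex and by a final number in their titles. Between the sets of 10-cell libraries its share with a count ran from 50.0 to 71.4% at 12 dpi and from 71.4 to 100% at 90 dpi. The set levels overlapped, with 5.33, 12.8, 59.9 and 62.6 CPM at 12 dpi and 22.75, 31.0, 32.5 and 46.1 CPM at 90 dpi. Neuronal transcripts were also present in these captures. The 12 neuron markers had a count in 35.7 to 100% of 10-cell libraries at 12 dpi (median 82.1%) and in 67.9 to 100% at 90 dpi (median 94.6%). The 15 OPC markers had one in 37.5 to 100% (median 48.2%) and 58.9 to 100% (median 85.7%). The part of neuronal RNA in the shares was not tested.

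**Figure D5:**
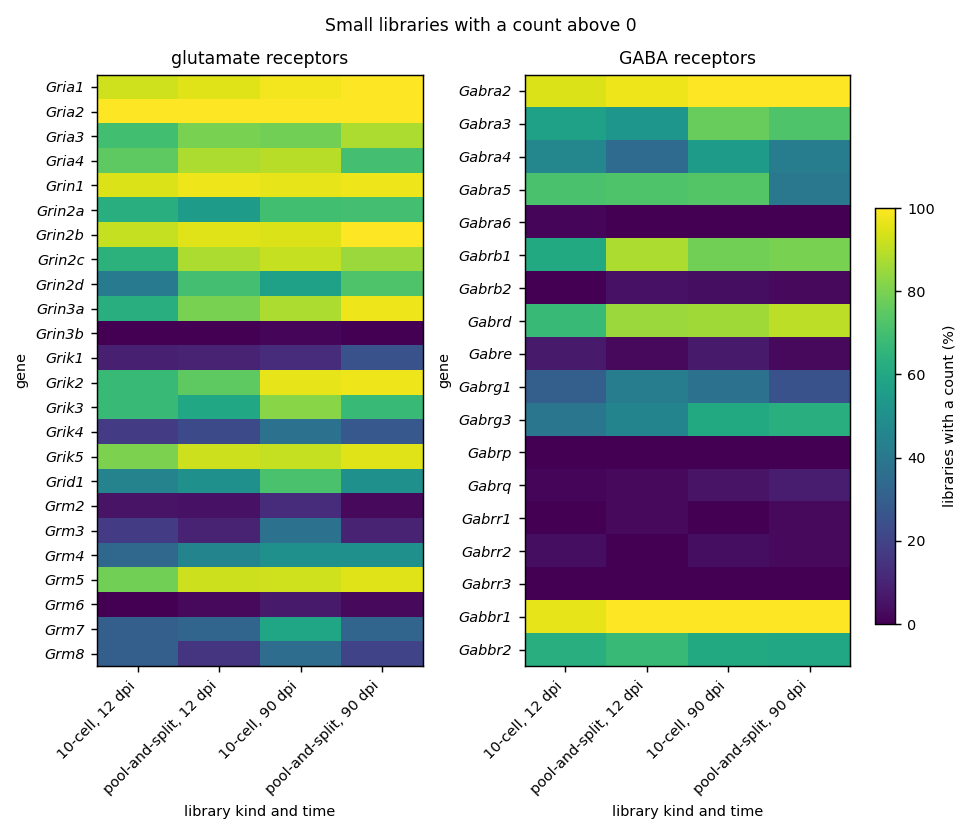
Percent of small libraries with a count above 0 for 42 receptor genes (rows), by kind of library and dpi (columns), for 56 10-cell and 40 pool-and-split libraries at each time. Gria2 reaches 100% in every column, while Gabrp and Gabrr3 stay at 0.

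With sets as replicates, no receptor gene passed the test between 90 and 12 dpi. edgeR called 0 of 39 tested members in the 10-cell sets (0% of all genes) and 0 of 35 in the pool-and-split sets (0% of all genes), with 3 and 3 at an unadjusted p under 0.05 (7.31% and 7.92% of all genes). In simulated counts this test rarely called even large changes, so 0 calls do not show that levels stayed the same. DESeq2 called 1 of 39 (2.15% of all genes) and 2 of 35 (4.17%). In the pool-and-split sets the 2 genes called by DESeq2 were Grik4 (3.77) and Gabra4 (-3.08), both at a median under 7 CPM at each time.

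Spread between libraries was compared because pool-and-split libraries share 1 pool of cells, so a wider spread in 10-cell libraries would point to differences between captures. Of the members with a count in at least 50% of libraries, 24 could be tested at 12 dpi and 30 at 90 dpi. Of these, limma called 0 and 0 as wider in 10-cell libraries (0.0254% and 0.259% of all genes). In test data for 12 dpi, 200 genes had a known SD ratio of 2, and this test called 25 of them. The 0 calls therefore do not show that spread was equal. Counts of members at an unadjusted p under 0.05, in either direction, were 4 and 1 (9.50% and 13.6% of all genes), with smallest adjusted p-values of 0.302 and 0.327. The first was that of Grin2d, which spread more in pool-and-split libraries (difference -1.10 ± 0.35, SE). Over all genes at 90 dpi, 25 were called wider in 10-cell and 35 wider in pool-and-split libraries. At 12 dpi, 20 of the 24 had a larger spread in 10-cell libraries, with a median difference of 0.32 in mean absolute log2 deviation (0.16 over all genes). At 90 dpi it was 17 of 30, with a median of 0.06 (-0.06 over all genes). Gria2 had mean deviations of 1.98 in 10-cell and 1.10 in pool-and-split libraries at 12 dpi, a difference of 0.87 ± 0.31 (SE, adjusted p = 0.361).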

How the data were processed

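The deposited values are expected counts per gene that the authors estimated with RSEM and Bowtie2 on GRCm38, per the submitters' processing notes, which give no versions. Per the labels' protocols, bulk RNA (10 µm sections) was amplified linearly with T7 polymerase and small libraries (8 µm) by PCR, so PCR copies may be counted as molecules in the latter. The 2 libraries of 11 animals were summed, counts rounded and 92 spike-in rows left out. The bulk model was a single edgeR 4.0.16 fit (R 4.3.3, quasi-likelihood, TMM scaling) of all 37 animals with a term for sex, on genes kept by filterByExpr with a minimum count of 10 and a minimum total of 15. A gene was called when its Benjamini-Hochberg adjusted p, taken across the whole table, was below 0.05. CPM use TMM-scaled totals, and per-kilobase values the merged GENCODE M21 exon length. Small libraries were summed to sets, so their p-values measure the spread between sets, which may be technical. Spread was tested with limma 3.58.1 on absolute deviations of log2(CPM + 1) from set medians. The code was tested on simulated data. The members, gene lists and tests were chosen with earlier results of these data known. Values in every group are given, in the text or in a figure, for the called genes with the largest rise and fall of each family in tumours against WT. Of each list of partner genes, the 2 largest called rises and falls were named. Some genes that these rules take are counted in the totals but not reported here. Other genes, and shares within families, were added after seeing the data. Alternatives were RLE scaling, DESeq2 1.42.0, other filters, leaving out the sex term, only the deepest library per animal, only the groups compared, and each animal or set left out in turn.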

Additional observations from a re-analysis of the deposited data

Results flagged for a closer look

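In 3 groups 1 animal stood apart in a gene given with values in every group. Gabbr1 was highest in CKO_20647 at 90 dpi, at 739.5 CPM against 338 to 370.3 CPM, in WT_22064 at 150 dpi, at 424.9 CPM against 320.3 to 357 CPM, and in Tumor_21256, at 304.3 CPM against 80.4 to 117 CPM. CKO_20647 and Tumor_21256 also had the highest neuron marker sums of their groups (15374 and 1519.5 CPM). WT_22064 did not (8097 CPM). The OPC marker sum was the lowest of its group in CKO_20647 (3222 CPM) and the highest in Tumor_21256 (15997 CPM). In all, 48 groups were checked in this way, and chance alone flags about 1 in 20.

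The genotype difference changed between 90 and 150 dpi, when the CKO samples were tumours, for each of the 8 genes given with values in every group. These 8 were chosen by their change in tumours against WT, which is part of the same difference, so the choice favoured this outcome. The log2 changes of that difference in edgeR were -2.86 for Gria1, -4.82 for Grin2b, 1.59 for Grin3a, -1.41 for Grik2, 0.94 for Grik3, -4.81 for Grm8, -5.09 for Gabra5 and -1.76 for Gabbr1.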

How the results depend on the processing

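Of the receptor genes called in tumours, 24 of 30 against WT, 30 of 34 against CKO and 25 of 28 for the change of the genotype difference were called in every setting, and none changed direction. Leaving out each animal gave 27 to 34, 34 to 35 and 25 to 31 calls. Before tumours, the compared groups alone gave 1 call at 12 dpi (Gabra2) in place of 0. In the 10-cell sets DESeq2 and each library as a replicate gave 1 call each, and in the pool-and-split sets 2 (DESeq2) and 1 (Grid1, each library as a replicate), all in place of 0. Libraries of 1 set may share animals, so p-values over libraries are too small. A replicate block of the set number gave 0 calls in both kinds. The numbers did not pair the sets (correlations of same-numbered sets from -0.039 to 0.019). In tumours against WT and CKO, the direction of a receptor gene turned only where it had no call. These were Grin3b against WT (-0.57 with the deepest library, -0.12 to 1.16 without 1 animal) and CKO (-0.082 with the deepest library), Grid1 against WT (-0.46 to 0.038 without 1 animal), Grin2d against CKO (-0.23 to 0.46 without 1 animal) and Gabrg1 against CKO (0.10 with RLE scaling and with DESeq2, 0.049 with a mean of 10 CPM, 0.13 without sex, and -0.59 to 0.21 without 1 animal). The cause was not tested. Depth limits members under about 2 CPM, the animal WT_21167, and the small libraries, where sets varied widely.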
